A study of Mus musculus with 10 samples.

Results

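The CCN family of matricellular genes was followed across embryonic mouse cortex. Its 6 genes, Ccn1 to Ccn6, were found by their Entrez gene IDs among 27178 gene IDs, and all 6 were present in the deposited table. Within the family, membership followed the gene names and not a measured value. Ccn1 was itself the manipulated gene: it was deleted in one experiment and supplied on a plasmid in the other.

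CCN proteins are secreted, modular proteins that sit in the extracellular matrix, bind integrins and heparan sulfate proteoglycans, and change how cells respond to matrix and growth factors. Ccn1 and Ccn2 are textbook targets of the transcriptional coactivators YAP and TAZ acting through TEAD factors, and both also respond within a short time to serum. In the cortex, Ccn2 is used as a marker of subplate and layer 6b neurons, and both genes are expressed by cells of vessels and meninges. Glypican 4, the product of Gpc4, is a heparan sulfate proteoglycan of the cell surface.

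Polyadenylated RNA was sequenced in bulk from GFP-positive cells sorted from cortex, in 10 libraries, 2 for each of 5 groups. At embryonic day (E) 17.5, the WT group was wild-type C57BL/6 cortex, and the CcKO group was C57BL/6 cortex of genotype Nestin-Cre, Ccn1fl/fl. The labels do not say whether WT carried Cre or floxed alleles, so in CcKO against WT the loss of Ccn1 and the presence of Cre cannot be told apart. Both had received the control plasmid PB-Ctrl, with a PiggyBac transposase plasmid, by electroporation in utero at E14.5. At E15.5, wild-type ICR cortex had received PB-Ctrl, PB-CCN1 or PB-GPC4, again with transposase, at E13.5. Transposase plasmid was injected at 3 µg/µl and PiggyBac plasmid at 1.5 µg/µl in every group. PiggyBac inserts its cargo into the genome, so the descendants of an electroporated progenitor keep it. Cre driven by Nestin sequences acts in neural progenitors and their progeny, and so leaves the gene intact in vessels, blood and meninges. Strain, age and day of electroporation differ between the experiments, so groups were tested only within an experiment. Whether replicates were separate animals is not stated, so a p-value reflects the spread between these libraries alone.

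Library totals ranged from 22505945 to 30825498 counts. Between replicates, chi-square divided by its degrees of freedom was 3.37 to 8.71, which is above counting error. All 14 cortical progenitor and neuron markers on the list were detected in every library, with Tubb3 at 843 to 1374 FPKM and Neurod6 at 400 to 639 FPKM. FPKM are fragments per kilobase of gene length and of library total, and serve here for levels between genes. CPM are counts scaled to library size by TMM normalisation, and serve for a gene between libraries. The endothelial markers summed to between 4.66 and 12.6 CPM in a library, the mural markers to between 6.24 and 21 CPM, and the meningeal fibroblast markers to between 3.00 and 19.1 CPM, against 7680 to 8940 CPM for the cortical markers. The PB-Ctrl libraries stood apart in heat shock genes. Hspa1a, which encodes an inducible HSP70 chaperone and shares reads with its near-identical copy Hspa1b, was at 10.6 and 12 CPM in PB-Ctrl and at 0.713 to 2.06 CPM in the other 8 libraries. Both plasmid comparisons at E15.5 use those PB-Ctrl libraries.

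The promoter of Ccn1 is shown because Ccn1 is both the manipulated gene and a known target of TEAD factors, and TEAD targets are described with it below. The RefSeq promoter table held 2 of the 6 members, Ccn1 and Ccn6. The 250 bases before the annotated start of Ccn1 lie at chr3:145649986-145650235 on the minus strand of GRCm38.p6, and are written in the direction of transcription. Capitals mark the TEAD letters GGAATG, here on the opposite strand, and the TATA box letters TATAAA.
Ccn1 promoter: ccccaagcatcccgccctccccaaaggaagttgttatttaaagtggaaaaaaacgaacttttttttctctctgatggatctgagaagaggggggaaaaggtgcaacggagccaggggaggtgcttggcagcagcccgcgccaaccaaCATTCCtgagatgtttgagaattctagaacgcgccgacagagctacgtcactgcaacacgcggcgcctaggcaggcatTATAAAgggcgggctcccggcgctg
The TEAD letters begin 103 bases and the TATA letters 25 bases before the start. Searched on both strands in the same window, GGAATG occurred in 12.6% of 27025 RefSeq promoters and TATAAA in 13.0%. The AP-1 letters TGANTCA, found in 6.87% of promoters, and the CArG box of serum response factor, found in 1.4%, had no match in the Ccn1 window. The Ccn6 window, at chr10:39163795-39164044 on the minus strand, held none of the 4 motifs. It lies within the Ccn6 locus given below, 39150970 to 39174376, and so not before the start of that locus. A match describes the letters only.

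Ccn1, a secreted integrin ligand, was the most abundant member by length-scaled level in WT, PB-Ctrl, PB-CCN1 and PB-GPC4, but not in CcKO. It supplied 82.8% and 77.2% of the summed FPKM of the family in the WT libraries, and 83.8% and 85.9% in the PB-Ctrl libraries. In CcKO its share was 14.0% and 36.1%, and Ccn2 was the higher of the pair in both libraries. The FPKM ratio of Ccn1 to Ccn2 was 9.64 and 4.48 in WT and 0.224 and 0.733 in CcKO. Without Ccn1, the other 5 members together reached 1.31 to 4.87 FPKM in a library, with both PB-Ctrl libraries highest.

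Ccn1 (Entrez gene 16007, once named Cyr61) lies on chromosome 3 at 145646971 to 145649985 of GRCm38.p6, on the minus strand, with 5 exons. At E17.5 its FPKM were 8.83 and 6.06 in the WT libraries and 0.332 and 1.53 in the CcKO libraries. At E15.5 they were 25.2 and 28.5 with PB-Ctrl, 3470 and 3408 with PB-CCN1, and 17.6 and 14.6 with PB-GPC4. In both PB-CCN1 libraries this level ranked 2 among all genes, and in PB-Ctrl it ranked 3475 and 3078. In CPM the order was PB-CCN1, PB-Ctrl, PB-GPC4, WT and CcKO, and no neighbouring groups overlapped. The step from PB-GPC4 to WT also crosses the experiments, and was not tested.

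Ccn2 (Entrez gene 14219, once named Ctgf) encodes connective tissue growth factor, a matrix protein tied to fibrosis. It lies on chromosome 10 at 24595442 to 24598683 on the plus strand. Its FPKM were 0.916 and 1.36 in WT and 1.48 and 2.09 in CcKO. At E15.5 they were 3.57 and 3.84 with PB-Ctrl, 1.07 and 0.602 with PB-CCN1, and 1.12 and 1.24 with PB-GPC4. In CPM the order of the groups was PB-Ctrl, CcKO, PB-GPC4, WT and PB-CCN1. PB-Ctrl stood above every other group, while WT overlapped both PB-GPC4 and PB-CCN1. An antisense gene, Gm15270, shares 665 exonic bases with Ccn2 on the other strand. The strand setting of the counting is not given in the sources used here, so reads of the pair cannot be told apart on those bases.

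The remaining members were near the limit of detection. Ccn3 (Entrez gene 18133, once named Nov, chromosome 15, 54745910 to 54753762, plus strand), whose product often restrains proliferation, had 2 to 24 counts in a library. Its CPM were 0.341 and 0.143 in WT and 0.512 and 0.290 in CcKO. They were 0.926 and 0.709 with PB-Ctrl, 0.359 and 0.431 with PB-CCN1, and 0.312 and 0.0656 with PB-GPC4. Both PB-Ctrl libraries were above the other 8. For scale, 3 counts correspond to between 0.0973 and 0.133 CPM here, a limit for counting error alone, as reads lacking molecular identifiers are not independent molecules.

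Ccn4 (Entrez gene 22402, once named Wisp1, chromosome 15, 66891369 to 66923201, plus strand) was first described as a gene induced by WNT1. In E17.5 cortex it had 0.853 and 0.357 CPM in WT and 0.551 and 0.760 CPM in CcKO. In E15.5 cortex it had 0.270 and 0.567 CPM with PB-Ctrl, 0.986 and 1.03 with PB-CCN1, and 0.312 and 0.984 with PB-GPC4. PB-CCN1 came first, and the groups after it overlapped neighbour by neighbour. The PB-CCN1 libraries were just above the higher PB-GPC4 library.

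Ccn6 (Entrez gene 327743, once named Wisp3, chromosome 10, 39150970 to 39174376, minus strand) is the member whose loss in humans causes a skeletal dysplasia. It had 0.768 and 0.250 CPM in WT and 0.315 and 0.435 CPM in CcKO. With PB-Ctrl it had 1.2 and 0.461 CPM, with PB-CCN1 0.851 and 0.259, and with PB-GPC4 0.312 and 0.459. All neighbouring groups in that order of means overlapped. Ccn6 shares 482 exonic bases with Tube1 on the other strand, which was at 4.91 to 8.36 CPM. How reads on those bases were assigned is not known, so the Ccn6 counts could be too high or too low.

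Ccn5 (Entrez gene 22403, once named Wisp2, chromosome 2, 163820752 to 163833146, plus strand) is the member that lacks the carboxy-terminal cysteine knot domain. It had 2 and 6 counts in WT and 0 and 2 in CcKO. With PB-Ctrl it had 0 and 4 counts, with PB-CCN1 8 and 6, and with PB-GPC4 4 and 7. It failed the filter on low counts and was not tested, so 5 of the 6 members entered the comparisons. Its highest values, 0.359 and 0.259 CPM, were in PB-CCN1.

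**Figure D1:**
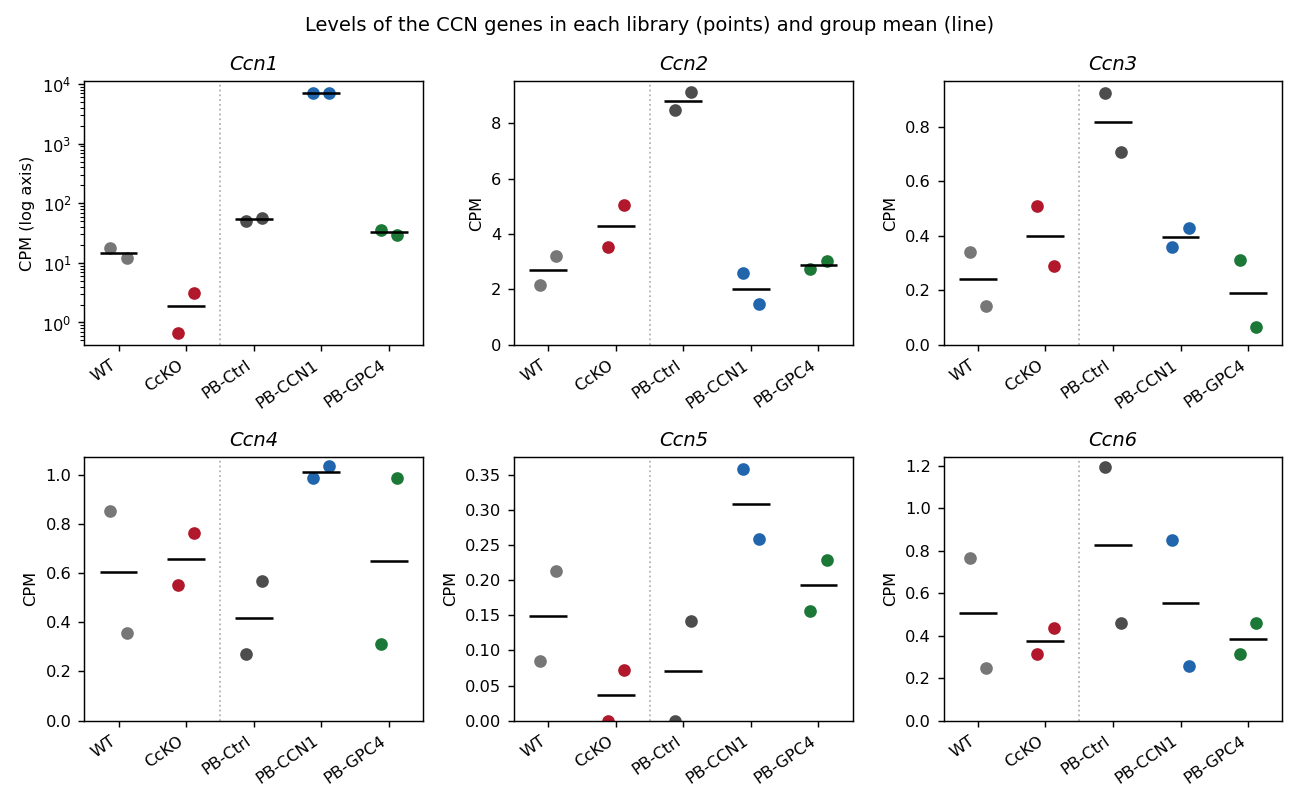
Levels of the 6 CCN genes in each library, as CPM after TMM normalisation by group, on a log axis for Ccn1 and a linear axis for the others; points are libraries, lines are group means (n = 2), and the dotted line divides E17.5 from E15.5. Ccn1 runs from 0.669 CPM in CcKO to 7096 CPM in PB-CCN1, Ccn2 is highest in PB-Ctrl, and Ccn3 to Ccn6 stay at or below 1.2 CPM.

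The first comparison asked how the family changed where Ccn1 was deleted. Ccn1 fell in CcKO and the other 4 tested members did not pass the threshold. Ccn1 counts were 415 and 340 in WT and 17 and 86 in CcKO, which are 17.7 and 12.1 CPM against 0.669 and 3.11 CPM. Both CcKO libraries were below both WT libraries, at 4.49% and 20.9% of the WT mean. The mean of WT was 14.9 ± 3.94 CPM and that of CcKO 1.89 ± 1.73 CPM (SD, n = 2). By the edgeR fit, the level in CcKO was 7.6-fold lower. The log2 fold change was -2.93 (SE 0.24, 95% interval -3.41 to -2.44, edgeR quasi-likelihood adjusted p = 1.83e-10). With CcKO replicate 2 left out it was -4.47, and with replicate 1 of that group left out -2.24, and it passed in both cases. In bulk RNA, fewer cells that express a gene and less RNA per cell cannot be told apart, and neither can reads of exons that the deletion left in place. Of the 5 tested members 0 rose and 1 fell, and that 1 was the deleted gene itself. Of all tested genes 30.3% were called here, 17.4% higher and 12.9% lower.

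Ccn2 was measured at 2.18 and 3.21 CPM in WT and at 3.54 and 5.03 CPM in CcKO. The groups did not overlap, but the lower CcKO library lay close to the higher WT library. The log2 difference of 0.66 (SE 0.275, 95% interval 0.10 to 1.23) had an unadjusted p of 0.0229 and missed the threshold after adjustment (edgeR adjusted p = 0.0688). It passed when CcKO replicate 1, the library with the least Ccn1, was left out (log2 0.89, edgeR adjusted p = 0.0266), and did not with any of the other 9 libraries left out. Markers of cell types that express Ccn2 were summed in each library. The 10 endothelial markers summed to 9.26 and 11.3 CPM in WT and to 12 and 12.6 CPM in CcKO, with no marker at 0. The 10 mural markers summed to 11.8 and 14.7 CPM in WT and to 21 and 15.9 CPM in CcKO, with 1 marker at 0 in WT replicate 1 and 1 in CcKO replicate 2. Both sums were higher in CcKO with no overlap, but single markers went both ways. Log2 differences ran from -0.55 (Egfl7) to 1.69 (Cdh5) among endothelial markers. Among mural markers they ran from -1.91 (Myh11) to 1.78 (Rgs5). The 11 meningeal fibroblast markers summed to 17.7 and 17.8 CPM in WT and to 19.1 and 11.6 CPM in CcKO, and the 8 subplate and layer 6b markers to 60.6 and 64.9 against 63.9 and 67.5 CPM, and both sums overlapped. The part of these cell types in the Ccn2 values was not tested. Of the endothelial markers 0 of 9 tested were called by edgeR or DESeq2, with 2 at an unadjusted edgeR p under 0.05. Of the mural markers edgeR called 1 of 9, Cspg4, as higher (log2 1.13, edgeR adjusted p = 0.0394). Of the subplate markers it called 1 of 7, Lpar1, as higher (log2 0.38, edgeR adjusted p = 0.0384). With a trend with gene length removed, 0 mural and 0 subplate markers were called. Of all tested genes, 17.4% were called higher and 12.9% lower in the main fit.

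Ccn3, Ccn4 and Ccn6 had intervals that reach well to both sides of 0. Their log2 differences were 0.74 (95% interval -1.02 to 2.49) for Ccn3, 0.14 (-1.28 to 1.56) for Ccn4 and -0.41 (-2.05 to 1.24) for Ccn6. The edgeR adjusted p were 0.571, 0.911 and 0.754. Each interval includes a 2-fold change in either direction.

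The genes around the family were described by lists. Among YAP and TEAD targets other than the CCN genes, 9 of the 19 tested rose in CcKO and 0 fell, with a median log2 difference of 0.33 beside 0.02 over all genes tested. Lats2, a Hippo kinase and feedback target of YAP, was at 17.2 ± 0.850 CPM against 9.89 ± 0.615 in WT (log2 0.80, edgeR adjusted p = 1.90e-05). Crim1, a membrane protein that binds BMPs, was at 40.9 ± 1.73 against 29.9 ± 0.726 CPM (log2 0.45, edgeR adjusted p = 7.63e-05). Arhgef17, a guanine nucleotide exchange factor, was at 65.2 ± 2.97 against 49.7 ± 2.61 CPM (log2 0.39, edgeR adjusted p = 0.000276). For scale, 17.4% of all tested genes were called higher and 12.9% lower in this comparison. The count became 4 of 19 when a trend with gene length was removed, a setting that called 1435 of 15371 genes higher and 1225 lower, and to 5 without WT replicate 2 or without CcKO replicate 2. Of 13 Hippo and YAP components tested, 9 rose and 0 fell, beside the same 17.4% and 12.9% of all genes. Mob1b, a kinase coactivator, was at 35.4 against 19.4 CPM (log2 0.86, edgeR adjusted p = 1.79e-07). Lats1, a Hippo kinase, was at 128 against 92.3 CPM (log2 0.47, edgeR adjusted p = 3.21e-07). Tead1, a partner of YAP, was at 103 against 74.2 CPM (log2 0.47, edgeR adjusted p = 1.20e-06). The list holds Hippo kinases as well as YAP and its partners, so its count gives no single direction of the pathway. With the length trend removed, 5 of the 13 were called higher, beside 1435 of 15371 genes, and the list median went from 0.47 to 0.19.

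Of 17 CCN receptors and partners tested, 9 rose in CcKO and 0 fell, with a median log2 difference of 0.52, beside 17.4% and 12.9% of all tested genes. Notch1, a receptor that CCN3 binds, was at 131 ± 11.7 CPM against 60.2 ± 2.26 in WT (log2 1.12, edgeR adjusted p = 2.83e-13). Lrp1, an endocytic receptor for CCN2, was at 531 ± 5.94 against 364.5 ± 0.909 CPM (log2 0.54, edgeR adjusted p = 2.53e-10). Igf2r, the mannose 6-phosphate receptor, was at 67.8 ± 2.46 against 42.8 ± 4.35 CPM (log2 0.67, edgeR adjusted p = 4.16e-08). With the length trend removed, 4 of the 17 were called higher, beside 1435 of 15371 genes, and the median was 0.23.

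Of 12 TGF-beta response genes tested, 3 rose and 1 fell, a share near the 17.4% and 12.9% of all tested genes. Skil, a SMAD repressor, was at 127 against 97.7 CPM (log2 0.38, edgeR adjusted p = 3.88e-05), and Fn1, fibronectin, at 188 against 156 CPM (log2 0.27, edgeR adjusted p = 0.000901). With the length trend removed 0 were called higher and 1 lower, and without WT replicate 2 the counts were 2 and 0. Of 18 serum response and immediate-early genes, 2 rose and 1 fell, which is below the share of all tested genes called, 30.3%. Egr3, a zinc finger factor, was at 9.25 against 4.39 CPM (log2 1.08, edgeR adjusted p = 0.00139), and Ier2 at 112 against 133 CPM (log2 -0.25, edgeR adjusted p = 0.00312). The total of 3 became 1 with the length trend removed or without WT replicate 2, and 6 without CcKO replicate 1. Of 3 erythroid markers tested, 2 were called higher in CcKO and 0 lower, and Alas2 had a log2 difference of -0.42 without a call. Hba-a1, an alpha globin, was at 6.47 CPM in CcKO against 0.979 in WT. The 7 erythroid markers in the table summed to 12.8 and 12.9 CPM against 4.78 and 3.71.

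The second comparison asked how the family responded to added CCN1. Ccn1, the gene supplied on the plasmid, rose, which the design fixed in advance. Of the other tested members Ccn2 alone was called, and it fell. Of all tested genes 1.19% were called, 0.442% higher and 0.748% lower. Ccn1 was at 7096 and 7002 CPM in PB-CCN1 and at 50.5 and 57.3 CPM in PB-Ctrl. Its mean was 131-fold higher (log2 7.03, SE 0.133, 95% interval 6.76 to 7.30, edgeR adjusted p = 1.06e-24). The counts are per gene and do not separate transcripts of the plasmid from those of the chromosome.

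With PB-CCN1, 58 and 34 counts were assigned to Ccn2, and with PB-Ctrl 220 and 258, which are 2.60 and 1.47 CPM against 8.48 and 9.14 CPM. Both PB-CCN1 libraries were far below both PB-Ctrl libraries, at 29.5% and 16.6% of the control mean. The means were 2.03 ± 0.802 CPM and 8.81 ± 0.465 CPM (SD, n = 2), a 4.34-fold lower level. The log2 fold change was -2.12 (SE 0.28, edgeR adjusted p = 2.94e-05). Leaving out any 1 of the 10 libraries gave log2 values from -2.59 to -1.76, and all 10 passed. Endothelial markers summed to 8.38 and 8.49 CPM in PB-CCN1 and 7.40 and 9.67 in PB-Ctrl, and mural markers to 8.78 and 11.8 against 8.64 and 11, so both sums overlapped. The 11 meningeal fibroblast markers summed to 6.59 and 6.46 CPM in PB-CCN1, with 3 at 0 in each library, and to 6.71 and 8.19 in PB-Ctrl, with 2 at 0 in each. The 8 subplate and layer 6b markers summed to 101 and 92.0 CPM against 95.9 and 96.4. Of these, 0 of 7 tested were called by edgeR or DESeq2, with 2 at an unadjusted edgeR p under 0.05. Of all tested genes, edgeR called 0.442% higher and 0.748% lower. Microglia and macrophage markers summed to 3.72 and 3.45 CPM with PB-CCN1 against 5.71 and 6.45, and erythroid markers to 4.97 and 5.6 against 8.99 and 8.54, both lower. The part of these markers and of the heat shock difference of PB-Ctrl in the Ccn2 result was not tested.

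Of the low members, Ccn3 and Ccn4 did not overlap between PB-CCN1 and PB-Ctrl, and Ccn6 did. The share of all genes that did not overlap was not computed, so this only describes the values. Ccn3 was the lower in PB-CCN1, with a log2 difference of -1.04 (95% interval -2.62 to 0.54, edgeR adjusted p = 0.652). Ccn4 was the higher there, with a log2 difference of 1.25 (95% interval -0.18 to 2.68, edgeR adjusted p = 0.512). Ccn6 had a log2 difference of -0.57 (95% interval -2.12 to 0.97, edgeR adjusted p = 0.840). None of these 3 passed the threshold, and the intervals leave room for changes in both directions.

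With added CCN1, 0.442% of all tested genes were called higher and 0.748% lower, and the list counts stand beside these shares. Of 19 YAP and TEAD targets tested, 0 rose and 2 fell, with a median log2 difference of -0.25 beside 0.005 over all genes. Ccdc80, a matrix protein, was at 10.4 ± 0.271 CPM against 15.5 ± 1.06 in PB-Ctrl (log2 -0.57, edgeR adjusted p = 0.0418). Arhgef17 was at 60.3 ± 4.17 against 74.3 ± 5.03 CPM (log2 -0.30, edgeR adjusted p = 0.0455). Of 13 Hippo and YAP components tested, 0 were called by edgeR or by DESeq2, and 2 had an unadjusted edgeR p under 0.05. The 2 calls became 1 with the length trend removed and without PB-GPC4 replicate 2. They became 0 without either PB-Ctrl library, either PB-CCN1 library or PB-GPC4 replicate 1.

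Of 17 CCN receptors and partners, 0 rose and 2 fell, beside 0.442% of all tested genes called higher and 0.748% called lower. Notch1 was at 164 ± 5.26 CPM against 199 ± 2.38 (log2 -0.28, edgeR adjusted p = 0.0164). Gja1, the gap junction protein connexin 43, was at 4.83 ± 0.488 against 9.59 ± 0.0253 CPM (log2 -0.99, edgeR adjusted p = 0.0226). Neither was called without either PB-Ctrl library or either PB-CCN1 library, and with the length trend removed 1 of the 17 was. Of 18 serum response and immediate-early genes, 2 rose and 2 fell, beside the same shares of all tested genes. Myc, a growth regulator, was at 105 against 72.8 CPM (log2 0.53, edgeR adjusted p = 1.53e-05), and Jun, an AP-1 subunit, at 349 against 466 CPM (log2 -0.42, edgeR adjusted p = 0.000211). The total of 4 became 8 without either CcKO library and 2 without any 1 PB-Ctrl or PB-CCN1 library. Of 12 TGF-beta response genes, Pmepa1, an inhibitor of SMAD signalling, was the 1 called, at 61.4 against 82.1 CPM (log2 -0.42, edgeR adjusted p = 0.00162). It was not called without PB-Ctrl replicate 2.

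The third comparison asked how the family responded to added GPC4. Ccn1 and Ccn2 both fell in PB-GPC4, 2 of the 5 tested members, and 0 rose. Of all tested genes 6.36% were called, 3.17% lower and 3.19% higher. Ccn1 counts were 928 and 911 in PB-GPC4 and 1309 and 1618 in PB-Ctrl, which are 36.2 and 29.9 CPM against 50.5 and 57.3 CPM. The groups did not overlap, and the PB-GPC4 libraries held 67.1% and 55.4% of the control mean. The means were 33.0 ± 4.45 CPM and 53.9 ± 4.84 CPM (SD, n = 2), a 1.64-fold lower level by the edgeR fit. The log2 fold change was -0.71 (SE 0.124, 95% interval -0.97 to -0.46, edgeR adjusted p = 0.000488). With all 10 libraries in the model, the same change missed the threshold by DESeq2 (log2 -0.70, adjusted p = 0.551) and by limma on log2(FPKM + 1) (log2 -0.71, adjusted p = 0.181). Fitted to the E15.5 libraries alone, it passed by DESeq2 (adjusted p = 3.67e-06) and by limma (adjusted p = 0.0208).

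Ccn2 counts were 70 and 92 in PB-GPC4 and 220 and 258 in PB-Ctrl, which are 2.73 and 3.02 CPM against 8.48 and 9.14 CPM. The PB-GPC4 libraries were close to each other, at 31% and 34.2% of the control mean, and far below both control libraries. The means were 2.87 ± 0.204 CPM and 8.81 ± 0.465 CPM (SD, n = 2), a 3.06-fold lower level by the edgeR fit. The log2 fold change was -1.61 (SE 0.263, 95% interval -2.15 to -1.07, edgeR adjusted p = 0.000239). It passed without any 1 of the 10 libraries, with log2 values from -1.68 to -1.54. Endothelial markers summed to 7.83 and 4.66 CPM in PB-GPC4, overlapping PB-Ctrl. Mural markers summed to 6.24 and 8.26 CPM, below both control libraries, with 2 and 1 markers at 0 against 1 and 0. Meningeal markers summed to 3.00 and 12.8 CPM and overlapped. Microglia and macrophage markers summed to 9.63 and 11.7 CPM, above both control libraries. The subplate and layer 6b markers summed to 102 and 97.8 CPM against 95.9 and 96.4. Of 7 tested, 1 rose and 1 fell, where 3.19% of all tested genes were called higher and 3.17% lower. Nr4a2, a nuclear receptor on this list, fell from 20.2 to 11.4 CPM (log2 -0.83, edgeR adjusted p = 0.000214). Nxph4, a neurexophilin and the most abundant of the subplate markers, rose from 41.7 to 56.7 CPM (log2 0.44, edgeR adjusted p = 0.00347), and was not called without PB-Ctrl replicate 2 or without PB-GPC4 replicate 1. The part of the subplate, mural and microglial markers and of the heat shock difference in the fall of Ccn1 and Ccn2 was not tested.

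Ccn3 was lower in both PB-GPC4 libraries than in both PB-Ctrl libraries, with 8 and 2 counts against 24 and 20. The log2 difference was -2.13 (SE 0.83, 95% interval -3.83 to -0.43), with an unadjusted p of 0.0160 and an edgeR adjusted p of 0.129. Ccn6 did not overlap either, but only just, with 0.459 CPM in PB-GPC4 replicate 2 against 0.461 in PB-Ctrl replicate 2. Its log2 difference was -1.08 (95% interval -2.64 to 0.49, edgeR adjusted p = 0.466). The share of all genes without overlap was not computed here either. Ccn4 overlapped, at a log2 difference of 0.64 (95% interval -0.81 to 2.08, edgeR adjusted p = 0.683).

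**Figure D2:**
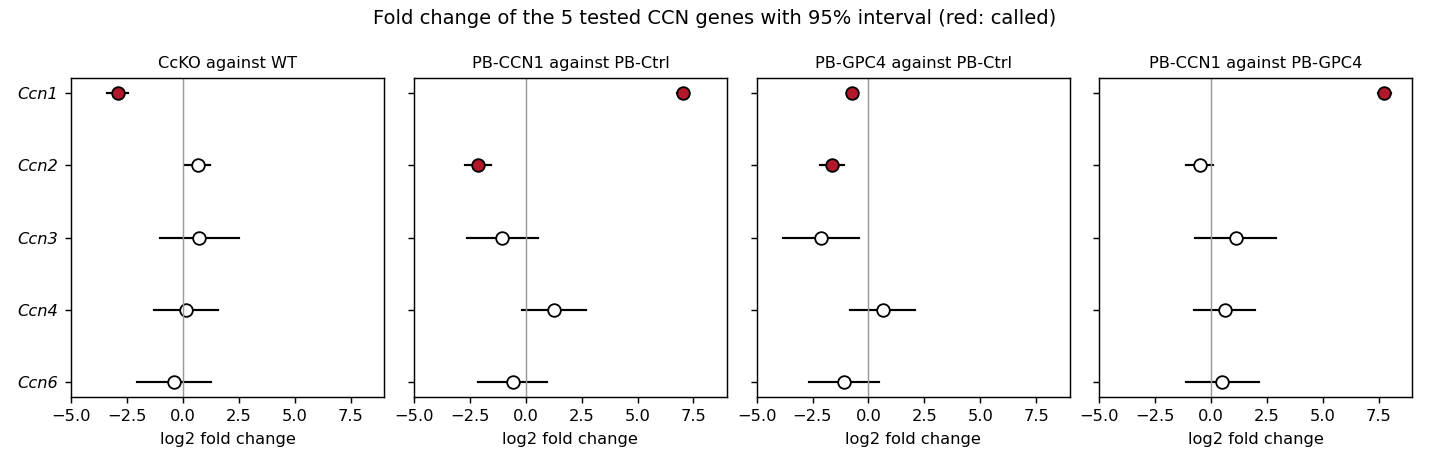
Log2 fold changes of the 5 tested CCN genes in the 4 comparisons, from the edgeR fit over 10 libraries; bars are 95% intervals and red points passed an adjusted p of 0.05. Ccn2 is at -2.12 with added CCN1 and at -1.61 with added GPC4, and at 0.66 without passing in CcKO.

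With added GPC4, the immediate-early list held most of the calls among the pathway lists. Of all tested genes, 3.19% were called higher and 3.17% lower in this comparison. Of 18 serum response and immediate-early genes, 1 rose and 13 fell, with a median log2 difference of -0.47 beside -0.004 over all genes. Jun was at 275 ± 15.3 CPM against 466 ± 3.27 (log2 -0.76, edgeR adjusted p = 3.28e-09). Fosb, another AP-1 subunit, was at 128 ± 16.8 against 198 ± 0.624 CPM (log2 -0.62, edgeR adjusted p = 6.91e-07). Nr4a1, an orphan nuclear receptor, was at 11.2 ± 0.714 against 23.2 ± 0.491 CPM (log2 -1.05, edgeR adjusted p = 9.91e-07). The total of 14 became 9 without either PB-Ctrl library and 8 without PB-GPC4 replicate 2. Of 19 YAP and TEAD targets, 0 rose and 2 fell, Ccdc80 at 9.61 ± 0.139 CPM (log2 -0.69, edgeR adjusted p = 0.00303) and Arhgef17 at 61.2 ± 2.37 CPM (log2 -0.28, edgeR adjusted p = 0.0230). The 2 calls became 1 with the length trend removed, and 0 to 1 without a PB-Ctrl or PB-GPC4 library.

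Of 17 CCN receptors and partners, 0 rose and 2 fell, beside 3.19% of all tested genes called higher and 3.17% called lower. The 2 were Notch1 at 165 ± 5.98 CPM (log2 -0.26, edgeR adjusted p = 0.00749) and the integrin subunit Itgb5 at 1.65 ± 0.15 against 3.02 ± 0.289 CPM (log2 -0.88, edgeR adjusted p = 0.0318). The 2 calls became 1 without PB-GPC4 replicate 1 and 0 without either PB-Ctrl library or PB-GPC4 replicate 2. Of 12 TGF-beta response genes, 1 rose and 2 fell, beside the same shares of all tested genes. Pmepa1 was at 55.7 against 82.1 CPM (log2 -0.56, edgeR adjusted p = 1.62e-05), Ltbp1, which tethers latent TGF-beta, at 30.9 against 23.9 CPM (log2 0.37, edgeR adjusted p = 0.0222), and Ltbp2 at 0.0913 against 0.731 CPM. The 3 calls became 1 without PB-Ctrl replicate 2 or either PB-GPC4 library.

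**Figure D3:**
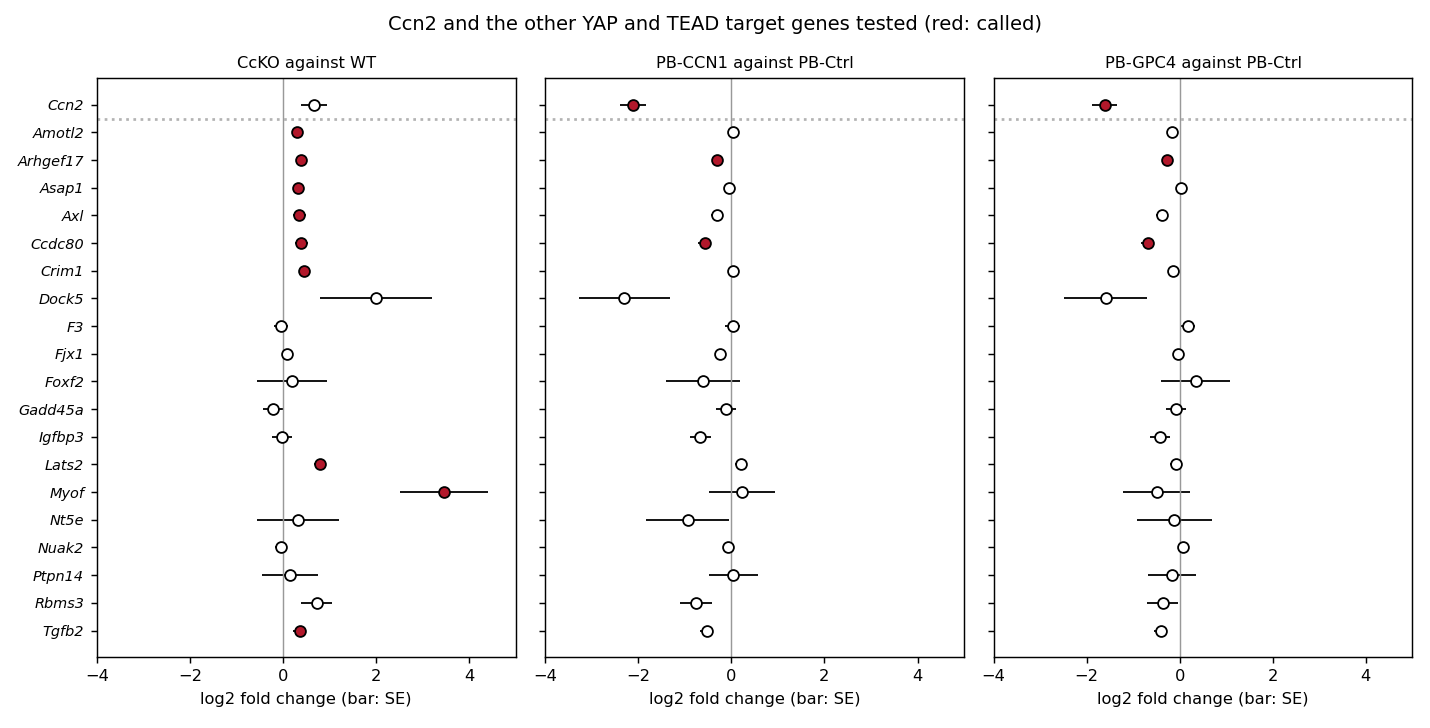
Log2 fold changes of Ccn2 (above the dotted line) and of the 19 tested YAP and TEAD target genes other than CCN, by comparison with a control, from the edgeR fit; bars are SE and red points passed an adjusted p of 0.05. Of the 19, 9 were called higher in CcKO and 2 were called lower with each plasmid, where Ccn2 was also lower. Of all tested genes, 17.4% were called higher in CcKO, 0.748% lower with PB-CCN1 and 3.17% lower with PB-GPC4.

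The plasmids were then set against each other, which tests whether the members respond differently to CCN1 and GPC4. The comparisons with PB-Ctrl share their control libraries, so their agreement on Ccn2 is no separate evidence. Ccn2 stood at 2.60 and 1.47 CPM in PB-CCN1 and at 2.73 and 3.02 CPM in PB-GPC4. The PB-CCN1 libraries were both lower, yet the gap between 2.60 and 2.73 CPM is small. The log2 difference was -0.50 (95% interval -1.11 to 0.10, edgeR adjusted p = 0.460), so no difference in Ccn2 between the plasmids was shown. The interval includes both equal levels and a level in PB-CCN1 that is lower by 1.11 on the log2 scale.

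Between the plasmids, Ccn1 was 214-fold higher with PB-CCN1 (log2 7.74, 95% interval 7.46 to 8.03, edgeR adjusted p = 1.17e-25). It was the 1 member called, and it is the gene that PB-CCN1 supplies. Of all tested genes 2.15% were called, 1.4% higher and 0.755% lower in PB-CCN1. Ccn3, Ccn4 and Ccn6 had log2 differences of 1.09, 0.62 and 0.50, with edgeR adjusted p of 0.641, 0.752 and 0.840. Each of their intervals included 0.

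The list with the most calls between the plasmids was the serum response and immediate-early list. There 10 of 18 were higher in PB-CCN1 than in PB-GPC4 and 0 were lower, beside 1.4% and 0.755% of all tested genes. The median log2 difference of the list was 0.38 beside 0.002 over all genes. Fosb was at 207 against 128 CPM (log2 0.69, edgeR adjusted p = 1.11e-07), Fos at 452 against 288.5 CPM (log2 0.65, edgeR adjusted p = 4.96e-07), and Nr4a1 at 22.4 against 11.2 CPM (log2 1.00, edgeR adjusted p = 4.06e-06). The 10 became 5 without PB-CCN1 replicate 1 or without PB-GPC4 replicate 2. Microglia and macrophage markers summed to 3.72 and 3.45 CPM in PB-CCN1 and to 9.63 and 11.7 CPM in PB-GPC4, with 2 of 8 tested called lower in PB-CCN1, C1qc at 0.415 against 2.12 CPM among them. Those 2 calls became 1 without either PB-Ctrl library or PB-GPC4 replicate 1, and 0 without either PB-CCN1 library or PB-GPC4 replicate 2. Hba-a1 was also lower there, at 2.92 against 7.86 CPM (log2 -1.42, edgeR adjusted p = 0.00285), a call lost without PB-CCN1 replicate 1 or PB-GPC4 replicate 1. Hba-a1 was the 1 called of 3 erythroid markers tested, and Hba-a2, at log2 0.94, went the other way without a call. The part of the microglial and erythroid cells in the immediate-early values was not tested. No YAP and TEAD target, Hippo component, TGF-beta response gene or CCN receptor on the lists was called between the plasmids by edgeR or by DESeq2. At an unadjusted p under 0.05 edgeR gave 4 of 19 targets, 2 of 13 components, 1 of 12 response genes and 3 of 17 receptors.

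**Figure D4:**
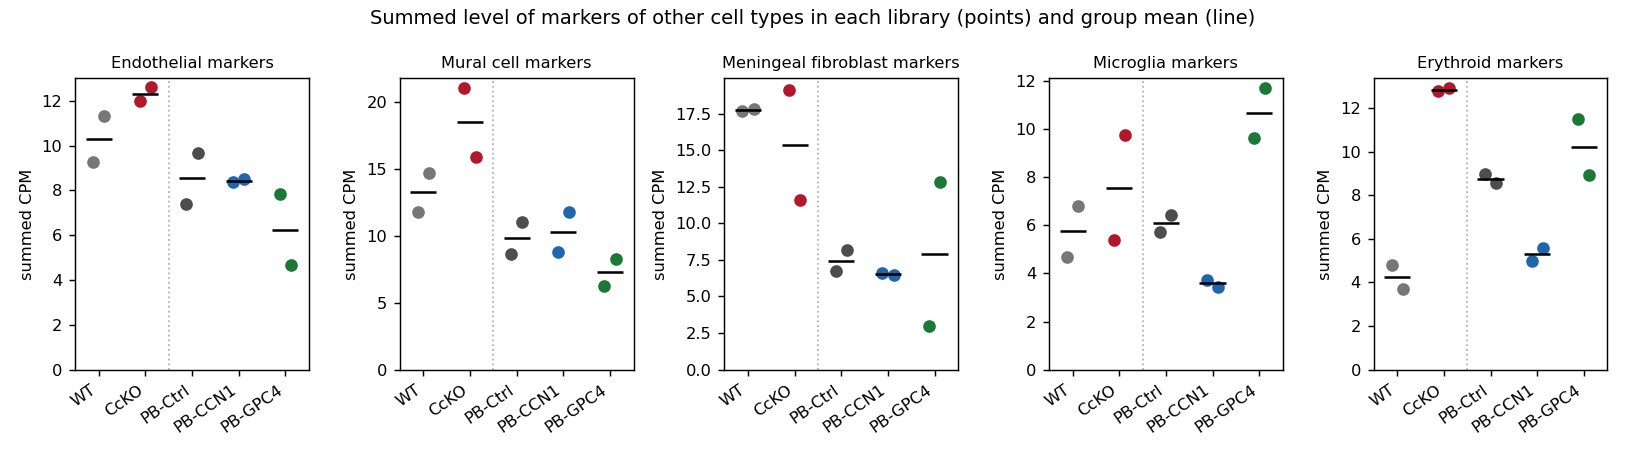
Summed CPM of marker lists for cell types other than cortical progenitors and neurons in each library (points) with the group mean (line); the dotted line divides E17.5 from E15.5. Endothelial sums run from 4.66 to 12.6 CPM and mural sums from 6.24 to 21 CPM, with CcKO above WT in both. Erythroid sums were also higher in CcKO than in WT, while meningeal and microglial sums overlapped between them.

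The genes whose pattern was most like each member were found by Pearson's r of log2 CPM, after each library was centred on its own experiment, among 12157 genes. For Ccn1, over the 8 libraries outside PB-CCN1, these were Hcfc1r1 (r = 0.985), Cib1 (0.981), Pfn1 (0.981), Car15 (0.978) and Csrp2 (0.971). Pfn1 encodes the actin monomer binder profilin. For Ccn2, over 10 libraries, they included Crebzf (r = 0.971), Wnt7a (0.953), Cdk2 (0.946) and Unc5c (0.942). Wnt7a encodes a WNT ligand and Unc5c a netrin receptor. For Ccn3 the first were Flvcr1 (r = 0.980), Nin (0.960) and Camk2a (0.959), for Ccn4 Ncoa5 (0.929), and for Ccn6 Fggy (0.890). With so many genes and so few libraries, which share groups and depth, high values of r are common, and they are given as a description. When 1 library was left out, all 5 genes of Ccn2 stayed among its first 50 in each case. For Ccn1, 2 of 5 did so without CcKO replicate 1, and 4 without WT replicate 1.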

How the data were processed

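Bulk RNA-seq was measured in 10 libraries of sorted GFP-positive cells. The authors deposited unnormalised read counts for each Entrez gene, made with featureCounts on mm10 after Trimmomatic and HISAT2, per the submitters' processing notes; versions and strand setting are not given in the sources used here. The authors also deposited FPKM, which scale those counts by gene length and library total. The lengths implied by counts and FPKM deviated by 0 bases between libraries. Symbols and loci came from RefSeq GRCm38.p6, the assembly of mm10.

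Counts were tested with the quasi-likelihood F-test of edgeR 4.0.16 in R 4.3.3, with TMM normalisation, filterByExpr and 5 group means in 1 model, leaving 5 residual degrees of freedom. The fit also draws on the spread of other genes, worth a further 22.2 degrees of freedom at the median. Tests and intervals use both, so they rest largely on spread shared between genes. Of 27178 genes, 15371 were tested, including 5 of 6 members. Adjusted p is by Benjamini-Hochberg over those genes, two-sided, and genes under 0.05 were called at any fold. Intervals are at 95%.

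The members, lists and tests were chosen with earlier results of these data known. Genes were named by a rule: the 6 members, up to 3 called genes of smallest adjusted p per list and comparison, the 2 most abundant markers of each cell type, and the 5 genes most like each member. The text prints only some of the genes that this rule names. Alternatives were other size factors, no filter, a replicate block, each experiment alone, removal of a length trend by lowess with a span of 0.3, each library left out, DESeq2 1.42.0, and limma 3.58.1 on log2(FPKM + 1). DESeq2 and limma on each experiment alone were added after the data were seen. With groups of 2, no test for outlying libraries was possible. How many of all genes had groups that did not overlap was not computed, so overlap is given throughout as a description only.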

Additional observations from a re-analysis of the deposited data

How the results depend on the processing

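Directions and calls of Ccn1 and Ccn2 held under all alternatives, with 3 exceptions. Ccn1 in PB-GPC4 against PB-Ctrl lost its call with DESeq2 (log2 -0.70, adjusted p = 0.551) and with limma (log2 -0.71, adjusted p = 0.181) over 10 libraries, and Ccn2 in CcKO gained one without CcKO replicate 1 (log2 0.89, edgeR adjusted p = 0.0266). The cause was not tested. Reversals were all in members that never passed: Ccn4 in CcKO was at -0.02 with the length trend removed, -0.37 without WT replicate 2 and -0.13 without CcKO replicate 2; Ccn6 in CcKO was at 0.58 without WT replicate 1; Ccn6 in PB-CCN1 was at 0.26 without PB-Ctrl replicate 1 and 0.05 without PB-CCN1 replicate 2; Ccn4 in PB-GPC4 was at -0.42 without PB-GPC4 replicate 2; and Ccn6 between the plasmids was at -0.59 without PB-CCN1 replicate 1. Counts near 10 limit what Ccn3 to Ccn6 can show.

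The number of genes called, which sets the background, moved more. In CcKO against WT it was 4663, and 2660 with the length trend removed (1435 higher, 1225 lower), 1917 with limma on the experiment alone, and 2919 to 4585 with 1 library left out (2919 without WT replicate 2). In PB-CCN1 against PB-Ctrl it was 183, and 298 with no filter, 537 with the experiment fitted alone, 34 with limma, 377 and 26 with DESeq2 and limma on the experiment alone, and 56 to 283 with 1 library left out. In PB-GPC4 against PB-Ctrl it was 978, and 2006 with the experiment alone, 341 with limma, 1507 and 450 with DESeq2 and limma on the experiment alone, and 284 to 1475 with 1 library left out. Between the plasmids it was 331, and 589 with no filter, 990 with the experiment alone, 76 with limma, 733 and 125 with DESeq2 and limma on the experiment alone, and 77 to 596 with 1 library left out. The split of calls also moved with DESeq2, to 677 higher and 443 lower in PB-GPC4 against PB-Ctrl (491 and 487 with edgeR), and to 203 and 206 between the plasmids (215 and 116).

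With 1 library left out, log2 values of Ccn1 ran from -4.47 to -2.24 in CcKO, 6.94 to 7.12 in PB-CCN1, -0.85 to -0.57 in PB-GPC4 and 7.60 to 7.88 between the plasmids. Those of Ccn2 ran from 0.37 to 0.98, -2.59 to -1.76, -1.68 to -1.54 and -0.98 to -0.15. Those of Ccn3 ran from 0.22 to 1.46, -1.23 to -0.84, -3.54 to -1.37 and 0.33 to 2.50. Those of Ccn4 ran from -0.37 to 0.88, 0.82 to 1.88, -0.42 to 1.27 and 0.04 to 1.67, and those of Ccn6 from -1.02 to 0.58, -1.66 to 0.26, -1.61 to -0.24 and -0.59 to 1.12.

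Replicate numbers in the labels are only shared numbers. Deviations of same-numbered libraries from their group means correlated at -0.00254 in CcKO and WT, 0.0180 in PB-CCN1 and PB-Ctrl, -0.0163 in PB-GPC4 and PB-Ctrl and -0.00535 between the plasmids. A replicate block gave 4567, 179, 917 and 290 genes called in the 4 comparisons and changed no call of a member, with Ccn2 at 0.66, -2.11, -1.62 and -0.49. Counts of called list members were taken as moved when they changed by over 1.5 times or fell to 0. Group mean CPM of the members under other scalings were taken as moved when they changed by more than their SD. Of these 2 kinds of case together, 94 moved and 254 did not.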
